A study of Mus musculus with 5 samples.

Results

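Nkx2-5 regions that lie away from both Tbx3 and Gata4 were taken from ChIP-seq of whole adult mouse heart. ChIP-seq recovers and sequences the DNA bound by a chosen protein, and regions are the stretches of the genome reported as enriched. A region of the Nkx2-5 list was kept when no Tbx3 region and no Gata4 region lay within 1 kb of it, measured as the gap between ends. It also had to lie on chromosomes 1 to 19, start at 3.1 Mb or later and be narrower than 400 bp. This gave 3282 regions of the 6705 in the Nkx2-5 list and of the 21703 in all 3 lists. They were chosen by the positions of the same 3 lists, so their number and their distance beyond 1 kb are descriptions.

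The series holds 5 libraries from adult hearts of the FVB/N background, of which the Nkx2-5, Gata4 and Tbx3 lists were used, with 1 library each. Nkx2-5 and Gata4 were profiled in wild-type hearts, Nkx2-5 with 2 antibody lots. Tbx3 was profiled in hearts of the genotype Myh6-MCM;CAG-CAT-TBX3, in which a Cre under the cardiomyocyte promoter of Myh6 can switch on a TBX3 transgene. The p300 library (wild-type) and the control library (Tbx3 antibody in Myh6-MCM hearts) were not analysed here. The labels state no age beyond "adult", no number of hearts per library and no induction of the Cre. Being away from Tbx3 therefore refers to hearts that carry the TBX3 transgene, and genotype and factor cannot be told apart.

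Nkx2-5 is a homeodomain transcription factor that heart muscle cells need in development and keep in adult life, and it activates genes of contraction, conduction and secretion. It is known to act together with Gata4, a zinc-finger activator, and with T-box factors, which share many of its targets. Tbx3 is the T-box repressor that holds back working-muscle genes in the conduction system. In whole heart, signal from several cell types is mixed, and a factor held by few cells and one weakly bound in many cells cannot be told apart.

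The 3282 regions made up 48.9% of the whole Nkx2-5 list (exact Clopper-Pearson 95% interval 47.7 to 50.2%, counting error only, as for every interval below). Within the 6547 Nkx2-5 regions that passed the filters on chromosome, start and width they were 50.1% (48.9 to 51.3%). The remainder had Tbx3 alone within 1 kb (2573 regions, 39.3%), Gata4 alone (377, 5.76%) or both (315, 4.81%). Of the Gata4 regions, 828 of 1691 under the same filters (48.97%, 46.6 to 51.4%) had neither Tbx3 nor Nkx2-5 within 1 kb. The lists differ in length, with 13242 Tbx3, 6705 Nkx2-5 and 1756 Gata4 regions. The Nkx2-5 and Gata4 shares were thus taken against unlike lists and cannot be compared directly. Likewise, the order of Tbx3 alone and Gata4 alone cannot be told apart from list length. Depth and enrichment per region are unknown, because the lists give positions only. A region can thus be away from a factor because its signal there stayed under the authors' threshold.

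The filters removed 84 Nkx2-5 regions that were also away from both factors. Of these, 34 were on the X chromosome, 32 on the Y chromosome, 14 started before 3.1 Mb and 4 were 400 bp wide or more. On the X chromosome this share was higher than on any autosome. Of its 36 Nkx2-5 regions, 34 (94.4%, 81.3 to 99.3%) lay away from both factors. The X chromosome held only 35 Tbx3 and 7 Gata4 regions, whereas autosomes held from 433 (chromosome 16) to 1080 (chromosome 11) Tbx3 regions. Its high share cannot be told apart from this scarcity. The other 2 lists held no region on the Y chromosome, so all 32 Y regions lay away from both by construction. Why those lists held none there was not tested. On the mitochondrial genome, which held 16 Tbx3 and 7 Gata4 regions, none of the 18 Nkx2-5 regions lay away from both.

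The values on either side of the 1 kb limit were as follows. The regions nearest to it on the inside had gaps of 1005, 1005, 1012, 1021 and 1023 bp, all to Tbx3. They lay on chromosome 4 (144607755 to 144607920, mm9, as all positions here, counted from 1), chromosome 7 (123176208 to 123176318), chromosome 12 (73085622 to 73085737), chromosome 13 (45633889 to 45633992) and chromosome 6 (125116932 to 125117097). Just outside were Nkx2-5 regions with gaps of 996, 983, 978, 978 and 978 bp. They were on chromosome 1 (39252017 to 39252143), chromosome 9 (72489073 to 72489221), chromosome 8 (86097557 to 86097683), chromosome 11 (18482523 to 18482635) and chromosome 18 (80568761 to 80568861). The gap was to Gata4 for the one on chromosome 9 and to Tbx3 for the others. A set of 205 of the 3282 regions (6.25%) had a gap of 1 to 2 kb, and 163 of the Nkx2-5 regions left out as near had a gap of 500 bp to 1 kb.

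Nkx2-5 regions away from both factors were narrower at the median than the classes with a factor nearby. Their median width was 133 bp (order-statistic 95% interval 132 to 135 bp), with an interquartile range of 114 to 166 bp and extremes of 100 and 389 bp. The median was 149 bp (147 to 152 bp) with Tbx3 alone nearby, 164 bp (156 to 173 bp) with Gata4 alone and 169 bp (154 to 183 bp) with both. A width of 200 bp or more was reached by 11.8% (10.7 to 12.9%) of the regions away from both. The corresponding shares were 22.97% (21.4 to 24.6%) with Tbx3 alone, 27.6% (23.1 to 32.4%) with Gata4 alone and 36.8% (31.5 to 42.4%) with both. The intervals of the regions away from both overlapped none of those 3 classes, on either measure. Inside those 3 classes, though, regions with a gap of 1 to 500 bp and of 500 bp to 1 kb had medians of 131 and 132 bp. Low width is thus not particular to the regions away from both. At the narrow end, 640 of the regions away from both (19.5%, 18.2 to 20.9%) were 110 bp or less, close to the smallest width in the list, 100 bp. Regions of 1 library are not replicates, so no test was run and the values stand side by side.

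**Figure D1:**
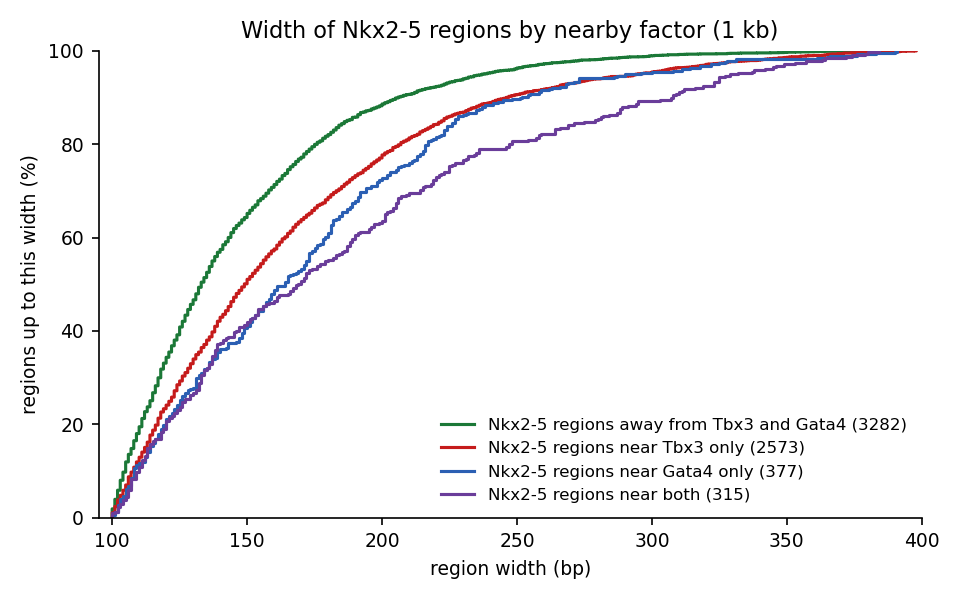
Cumulative share of Nkx2-5 regions (%, vertical axis) up to a given width (bp, horizontal axis) for the 4 classes by nearby factor, with the number of regions in the legend. The curve of the regions away from both factors rises first, with a median of 133 bp against 149, 164 and 169 bp.

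Seen the other way, the share of Nkx2-5 regions that were away from both factors was lower among wider regions. It was 59.6% (57.2 to 62.1%) in the narrowest quartile (100 to 116 bp), 56.7% (54.3 to 59.1%) at 117 to 140 bp and 49.8% (47.3 to 52.2%) at 141 to 181 bp. In the widest quartile (182 to 398 bp) it was 34.8% (32.5 to 37.1%). The width of a region is the one property of its own that the list gives. It cannot be read as strength of binding without the authors' peak-calling settings.

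Median width was highest among the Nkx2-5 regions that overlapped another factor. The 2712 Nkx2-5 regions that overlapped or touched a Tbx3 or Gata4 region had a median of 157 bp (155 to 161 bp). Those with a gap of 1 to 500 bp had 131 bp (127 to 136 bp, 390 regions) and those with 500 bp to 1 kb had 132 bp (127 to 139 bp, 163 regions). Among the regions away from both, the median was 136 bp at 1 to 2 kb, 136 bp at 2 to 10 kb, 132 bp at 10 to 50 kb, 131.5 bp at 50 to 200 kb and 131 bp beyond 200 kb. Their intervals all overlapped those of the near but separate regions. By this measure the regions left out for a neighbour at 1 bp to 1 kb had the widths of the regions kept. A wider region can overlap more easily, and the part of this in the difference was not tested. Counted between centres, the medians were as follows. With centres at most 50 bp apart the median was 159 bp (156 to 162 bp, 1714 regions), at 50 to 100 bp it was 154 bp (148 to 161 bp) and at 100 to 500 bp 140 bp (136 to 146 bp). At 500 to 1000 bp it was 132.5 bp (128 to 139 bp).

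**Figure D2:**
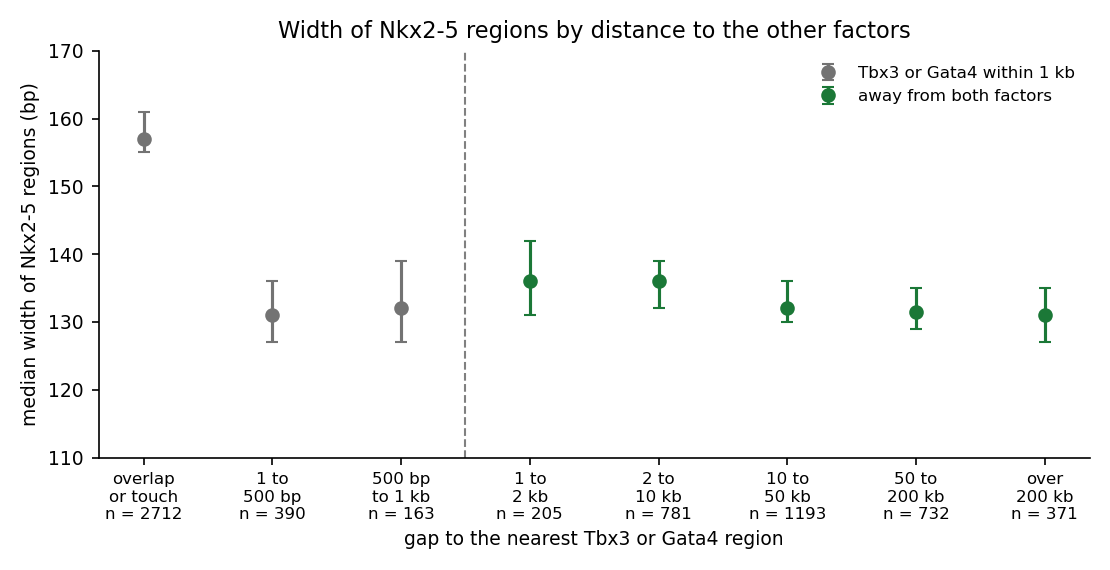
Median width of Nkx2-5 regions (bp; the vertical axis starts at 110 bp) by the gap to the nearest Tbx3 or Gata4 region, with order-statistic 95% intervals and the number of regions under each point. Grey points are regions with a factor within 1 kb and green points regions away from both. The median of the overlapping regions, 157 bp, stands above the other medians, which lie between 131 and 136 bp.

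Most of these regions lay more than 10 kb from either factor. The median gap to a Tbx3 region was 28.4 kb (26.7 to 31.2 kb) and to a Gata4 region 286 kb (265 to 306 kb). The nearest region of the other lists was Tbx3 for 2845 (86.7%) and Gata4 for 436, and 1 region was equally far from both. The Tbx3 list is 7.54 times as long as the Gata4 list, so the order of the 2 distances cannot be told apart from list length. Counted to whichever was nearer, 205 regions had a gap of 1 to 2 kb, 781 of 2 to 10 kb, 1193 of 10 to 50 kb, 732 of 50 to 200 kb and 371 (11.3%) of over 200 kb. For comparison, Gata4 regions away from Tbx3 and Nkx2-5 had a median gap to Tbx3 of 42.7 kb (37.2 to 50.7 kb), above that of the Nkx2-5 regions. Nkx2-5 regions with Gata4 alone nearby had 28.7 kb (22.3 to 37.2 kb), an interval that overlaps that of the Nkx2-5 regions away from both.

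**Figure D3:**
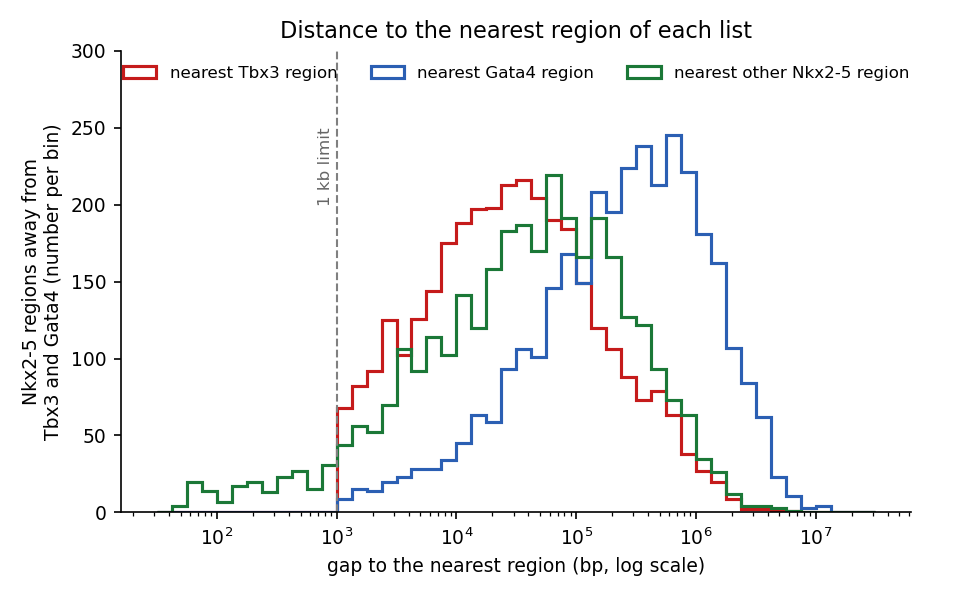
Number of Nkx2-5 regions away from both factors (vertical axis) by the gap to the nearest Tbx3, Gata4 and other Nkx2-5 region (bp, log scale). The Tbx3 and Gata4 curves start at 1 kb by the choice of the regions, the Gata4 curve lies farthest to the right (median 286 kb), and the Nkx2-5 curve reaches down to 53 bp.

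Within 10 kb, 1971 of the 3282 regions (60.1%, 58.4 to 61.7%) had no region of any list. The choice of the regions set this in part, since no Tbx3 or Gata4 region could lie within 1 kb. A Tbx3 region lay within 10 kb of 914 (27.8%) and a Gata4 region within 10 kb of 171 (5.21%), with both for 99 of them. For Tbx3, the share was 31.6% (26.9 to 36.5%) for Nkx2-5 regions with Gata4 alone nearby. It was 22.5% (19.7 to 25.5%) for Gata4 regions away from Tbx3 and Nkx2-5. For Gata4, it was 7.46% (6.48 to 8.55%) for Nkx2-5 regions with Tbx3 alone nearby. Another Nkx2-5 region lay within 10 kb of 827 (25.2%, 23.7 to 26.7%). That share was 35.99% (34.1 to 37.9%) for Nkx2-5 regions with Tbx3 alone nearby, 34.2% (29.4 to 39.2%) with Gata4 alone and 52.7% (47.0 to 58.3%) with both. The median distance to another Nkx2-5 region was 44.4 kb (39.7 to 48.2 kb), against 24.97, 21.3 and 7.21 kb in the same order. The share with another Nkx2-5 region within 10 kb was thus lower away from both factors than in each other class. The interval of the regions away from both did not overlap those of the other classes. These intervals count neighbouring regions as if separate, though, and no test was run. The classes were set by whether Tbx3 or Gata4 regions lay nearby. The part of local region density in the difference was not tested.

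The 5 regions farthest from any Tbx3 or Gata4 region were 103 to 144 bp wide. The farthest, 125 bp on chromosome 15 (19172813 to 19172937), was 6.20 Mb from Tbx3, 6.48 Mb from Gata4 and 5.07 Mb from the next Nkx2-5 region. The next, 104 bp on chromosome 16 (64033077 to 64033180), was 4.47 Mb from Tbx3 and 3.95 Mb from another Nkx2-5 region. A region of 127 bp on chromosome 8 (101970387 to 101970513) was 3.15 Mb from Gata4, its nearest neighbour in any list. Regions of 103 bp (22645606 to 22645708) and 144 bp (21639436 to 21639579) on chromosome 4 were each other's nearest Nkx2-5 neighbours, 1.01 Mb apart, and 3.01 and 2.00 Mb from the nearest Tbx3 region. In all, 21 regions (0.640%) had no region of any list within 1 Mb. Their median width was 127 bp and their range 101 to 353 bp.

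Some of the regions stood together. Another region away from both factors lay within 10 kb of 534 of the 3282 (16.3%, 15.0 to 17.6%). They formed 228 pairs, 22 groups of 3 and 3 groups of 4. Another set of 361 (11.0%) had an Nkx2-5 region with Tbx3 or Gata4 nearby within 10 kb, and 74 belonged to both sets. Neighbours within a group were separated by a median of 2512 bp, from 53 to 9960 bp. Short gaps were dense: 34 of the 281 gaps were of at most 200 bp and 31 more of at most 500 bp, which is 170 and 103 gaps per kb of gap length. Between 5 and 10 kb it was 15.8 per kb. No gap in the list was below 52 bp, and whether 1 wide stretch was split in the closest pairs was not tested. Median width was 136 bp (132 to 141 bp) in the regions with such a neighbour and 131 bp (129 to 133 bp) in those with no region of any list within 10 kb, intervals that overlap.

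The 3 groups of 4 differed in their surroundings. On chromosome 1 (135118309 to 135123822, 5.51 kb) the regions were 120, 141, 118 and 364 bp wide, with gaps of 623, 154 and 3994 bp. The widest of them is among the 10 widest of all. Within 25 kb of the centre of the group, 3 Tbx3 regions and 1 Gata4 region were found, with gaps of 7.53 to 9.80 kb from the 4 regions to Tbx3. On chromosome 4 (136291715 to 136298943, 7.23 kb) the regions were 140, 146, 125 and 218 bp wide with gaps of 143, 4951 and 1506 bp. This group stood alone, since Tbx3 lay 59.5 to 66.6 kb away and Gata4 705 to 712 kb away. On chromosome 6 (90558240 to 90569169, 10.9 kb) the regions were 159, 154, 132 and 133 bp wide, with gaps of 7064, 432 and 2856 bp. There Tbx3 regions lay 3.23 to 9.21 kb from the 4 regions, and 3 of them were within 25 kb of the centre.

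**Figure D4:**
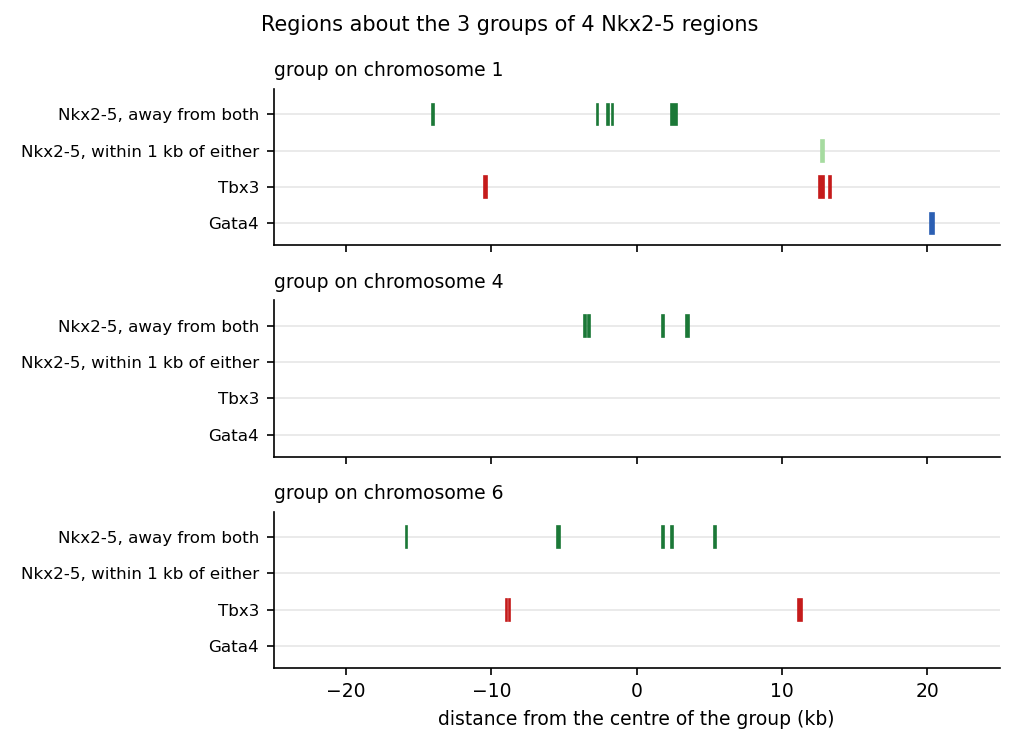
Regions of the 3 lists about the 3 groups of 4 Nkx2-5 regions, drawn to scale as distance from the centre of each group (kb, horizontal axis), with 1 row per list and Nkx2-5 split by the 1 kb limit. Tbx3 regions flank the groups on chromosomes 1 and 6, and the group on chromosome 4 has no region of another list within 25 kb.

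The 5 regions farthest from both factors were not among the 10 widest. With 10 of 3282 regions taken as widest, this says nothing about a link between width and distance. The gap to Tbx3 of the 10 widest varied, from 1.08 kb to 1.69 Mb, beside a median of 28.4 kb over all 3282. The widest, 389 bp on chromosome 4 (117820210 to 117820598), lay 48.3 kb from Tbx3 and 2.43 kb from another Nkx2-5 region. It was followed by chromosome 9 (43978849 to 43979224, 376 bp, Tbx3 at 26.5 kb), chromosome 15 (83963897 to 83964267, 371 bp, Tbx3 at 1.08 kb) and chromosome 15 (66575172 to 66575541, 370 bp, Tbx3 at 48.6 kb). The fifth was the region of 364 bp in the group on chromosome 1. Next came chromosome 8 (86590345 to 86590706, 362 bp), chromosome 16 (30259467 to 30259826, 360 bp) and chromosome 18 (80527905 to 80528262, 358 bp), which lay 5.65, 3.60 and 6.44 kb from Tbx3. The last were chromosome 12 (87701772 to 87702126, 355 bp, Tbx3 at 60.6 kb) and chromosome 3 (17516643 to 17516995, 353 bp). The region on chromosome 3 lay 1.69 Mb from Tbx3, 2.34 Mb from Gata4 and 1.95 Mb from another Nkx2-5 region. It is thus 1 of the 21 with no region of any list within 1 Mb.

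Along the chromosomes, 1861 of the regions away from both factors (56.7%) had no other such region as a direct neighbour. Such regions were 15.1% of all regions in the 3 lists. The share under a random order was not computed, so whether they alternate with the others was not tested. Unbroken runs held at most 6 regions, and there were 4 such runs, picked out after the values were seen. They lay on chromosome 1 (79742778 to 81692991 and 136700400 to 136808729), chromosome 4 (56665765 to 56815255) and chromosome 9 (52088780 to 53056405). The runs on chromosome 4 and the second on chromosome 1 spanned 149 and 108 kb, the other two 1.95 Mb and 968 kb. In bins of 5 Mb (487 bins with a region of any list), the number of these regions followed that of Tbx3 regions (Pearson r = 0.79, Spearman rho = 0.83) and of other Nkx2-5 regions (0.72 and 0.76). Against Gata4 regions the values were 0.49 and 0.55. The shorter Gata4 list leaves fewer regions per bin, and the other Nkx2-5 regions are likewise fewer than the Tbx3 regions. The values against Tbx3, other Nkx2-5 and Gata4 regions thus cannot be ranked. These values describe bins that share the 3 libraries, and gene content, base composition and mappability per bin were not measured. Only 4 bins with such a region had no Tbx3 or Gata4 region. The bins with the most were chromosome 8 from 120 to 125 Mb, with 26 beside 25 other Nkx2-5 and 114 Tbx3 regions, and chromosome 4 from 135 to 140 Mb and chromosome 1 from 90 to 95 Mb, with 24 each. The bin on chromosome 4 holds the group of 4 described above and had 9 other Nkx2-5 regions, against 23 in the bin on chromosome 1.

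By autosome, the share of Nkx2-5 regions away from both factors ran from 43.2% (36.3 to 50.3%) on chromosome 19 to 57.98% (52.7 to 63.2%) on chromosome 9, with a median of 49.4%. The interval of chromosome 9 (207 of 357) did not overlap those of chromosomes 5, 11 and 19. That of chromosome 13 (148 of 260, 56.9%, 50.7 to 63.0%) did not overlap those of chromosomes 11 and 19. All other pairs of chromosomes overlapped. Chromosome 2 carried the largest number, 259 of its 500 Nkx2-5 regions (51.8%, beside 50.1% over all 19 autosomes). Chromosome 19 carried the smallest, 89 of 206. Median width per chromosome was 121.5 bp on chromosome 16 and higher on all others, up to 136.5 bp on chromosome 14.

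**Figure D5:**
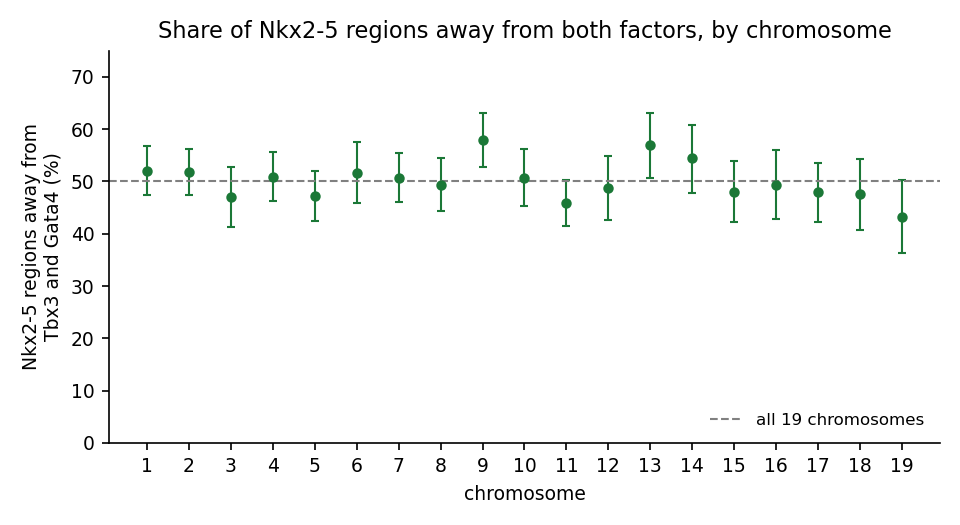
Share of filtered Nkx2-5 regions that lay away from Tbx3 and Gata4 (%, vertical axis) on each of the 19 autosomes, with exact 95% intervals, and the share over all of them (50.1%) as a dashed line. The points run from 43.2% on chromosome 19 to 57.98% on chromosome 9.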

How the data were processed

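The lists deposited by the authors give chromosome, start and end per region, with no score or read number. Positions are on mm9, a build taken from the submitters' processing notes. Aligner, peak caller, threshold and use of the control were not given in the sources used here. Starts were read as counted from 0 (BED) and printed counted from 1. Distances are gaps between ends. Groups join regions across gaps of 10 kb or less. Shares carry exact Clopper-Pearson 95% intervals and medians order-statistic 95% intervals, computed with Python 3.11.15, NumPy 2.4.6 and SciPy 1.17.1. Distances, overlaps and groups were tested on simulated lists against direct comparison. With 1 library per factor there is no test between classes and no replicate check. Genes, location in genes and motifs, which had been planned for an mm9 annotation or genome, were not analysed here, because the gene table at hand is of GRCm38. Regions named are the 10 widest, the groups of 4 or more, the 5 nearest to the 1 kb limit on either side and the 5 farthest from both factors. The members and measures were chosen with earlier results of these data known. Alternatives changed the distance limit, the filters, the width of regions used, the gap within groups and the lists used.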

Additional observations from a re-analysis of the deposited data

How the results depend on the processing

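The number of Nkx2-5 regions away from both factors stayed within 1.5 times of 3282 in 8 of 10 alternatives, from 2296 (limit of 10 kb) to 3837 (overlap only). It was 1948 with the wider 50% of each list. That setting also shortens the Nkx2-5 list, so this count has a smaller base than 3282, and its share was not computed. The number was 5855 without the Tbx3 list, against 3659 without the Gata4 list. Leaving out either list was chosen after seeing the data. Median width stayed at 132 to 135 bp except with the wider 50% of each list (175 bp), which drops the narrow regions by construction, and without the Tbx3 list (139 bp). The share with another such region within 10 kb, 16.3%, was 19.1% when only overlap counted as near, 13.2% with a limit of 10 kb, 12.6% with the wider 50%, 17.8% without the Gata4 list and 27.9% without the Tbx3 list. With gaps of 2 and 50 kb this share was 7.50% and 35.2%. At the 10 kb gap it was higher where more regions were kept, from 12.6% of 1948 to 27.9% of 5855. The setting and the number of regions cannot be told apart there. Alternatives for motifs, location in genes and gene lists were not run. With single libraries no replicate could be left out. No paired analysis was possible because each group has 1 library. Depth is unknown, so a region under threshold in the Tbx3 or Gata4 library cannot be told apart from an unbound one.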
